A study of Mus musculus with 10 samples.

Results

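Genes of the endothelial cell, the cell that lines blood and lymph vessels, were followed in RNA from samples of a mouse ovarian tumour line. The labels and the design text disagree on whether these were cultured cells or tumours, as described below. The genes were Pecam1, Kdr, Flt1, Flt4, Tek, Tie1, Emcn, Vwf, Plvap and Cldn5. Their entries were taken from the count table by gene symbol, 10 of 55385 entries, and the list of names was drawn up with earlier results of these data known. Each symbol matched 1 entry, and all 10 genes passed the filter on low counts, as did 15064 entries in all. No other annotated gene overlapped the exons of any of the 10.

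Gene expression was measured by RNA sequencing in 10 libraries in 2 groups of 5, and the question was what a short hairpin RNA against Il6 changes. The line came from a tumour mutated in both Arid1a and Pik3ca, so both groups carry these mutations. The first group is labelled IL6 shRNA1, with the genotype given as IL6 knockdown. The second carries a non-mammalian control hairpin in the pLKO.1-puro lentiviral vector, and both are labelled as given no treatment and as batch 1. The labels describe tumour cells kept in culture in medium with serum, whereas the design text describes tumours grown under the skin. The line is spelled APV245 in the labels and APC245 in the design text. One line and 1 hairpin against Il6 were used, and the labels name no strain, sex or age of a host. Nothing in the labels says that the libraries came from separate animals or cultures, so p-values measure the spread between these libraries, which may be technical.

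Library totals ran from 17905397 to 19934278 counts in the group labelled IL6 shRNA1 and from 18224751 to 22682346 in the control group. Il6, the targeted gene, showed no fall in the group labelled IL6 shRNA1. Its level was 1.73 ± 0.41 CPM (counts scaled to the size of the library; SD, n = 5) against 1.26 ± 0.64 in the control group (log2 fold change 0.44 ± 0.36 SE, adjusted p = 0.44 by edgeR's quasi-likelihood test; exact two-sided permutation p = 0.21 over 252 regroupings). Il6 had 9 to 48 counts per library, so its level is imprecise. For this reason the groups are named by their labels. On the first principal component, 3 libraries stood apart; it held 54.3% of the variance. Those libraries were IL6 shRNA1 library 5, at 65.2, and control libraries 2 and 5, both at -64.9.

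Endothelial cells sense vascular endothelial growth factors through the receptor tyrosine kinases that Flt1, Kdr and Flt4 encode, and angiopoietins through the kinase of Tek and its partner Tie1. They join to each other through Pecam1, Cdh5 and Cldn5, and in tumours the growth of vessels depends largely on these signals. Cdh5, which encodes the cadherin that defines endothelium, was used here as a yardstick. Although the labels give the cell type as tumour cells, Cdh5 and all 10 genes were detected in every library. Cdh5 had at least 555 counts in every library, at 59.2 ± 21.2 CPM in the group labelled IL6 shRNA1 and 42.7 ± 8.64 in the control group. In bulk RNA, fewer cells of a type and less RNA per cell cannot be told apart.

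All 10 genes had a higher mean in the libraries labelled IL6 shRNA1, and none passed the test. Log2 fold changes of IL6 shRNA1 over control ran from 0.047 for Kdr to 1.29 for Vwf, with a median of 0.59, against a median of -0.01 over all genes tested. At an adjusted p under 0.05 in edgeR's quasi-likelihood test, 0 of 10 were called, where 5.62% of all genes tested were called higher and 6.16% lower (11.8% in either direction). At an unadjusted p under 0.05, 6 of 10 were higher (Flt4, Vwf, Emcn, Cldn5, Plvap and Tie1), against 15.5% of all genes. DESeq2 called 4 of 10 higher, where it called 10% of all its genes higher, and limma voom called 1 of 10 against 6.08%. A positive log2 fold change was found for 47.9% of all genes. Flt4 was also the 1 gene called with a filter of at least 1 CPM in 5 libraries (6.48% of all genes higher) and without robust dispersion (5.81%). Without IL6 shRNA1 library 1, Flt4, Emcn and Plvap were called (3 of 10, against 9.47% of all genes higher), and without control library 3, Flt4 and Cldn5 were (2 of 10, against 4.23%). None of the 10 was called in the fit without any other single library.

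Summed over the 10 genes, the level in IL6 shRNA1 libraries 1 to 5 was 261, 313, 339, 296 and 533 CPM, and in control libraries 1 to 5 it was 257, 229, 295, 244 and 198 CPM. Library 5 of the group labelled IL6 shRNA1 was far above every other library, and control library 5 was the lowest. The groups overlapped, since IL6 shRNA1 library 1 lay below control library 3. Library 5 of IL6 shRNA1 was the highest of all 10 libraries for 8 of the 10 genes, the exceptions being Kdr and Emcn. Control library 5 was the lowest for 6 genes. Without IL6 shRNA1 library 5 the median log2 fold change of the 10 genes was 0.40, with all 10 still positive. Without that library and control libraries 2 and 5 it was 0.17, with 9 of 10 positive and none called.

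**Figure D1:**
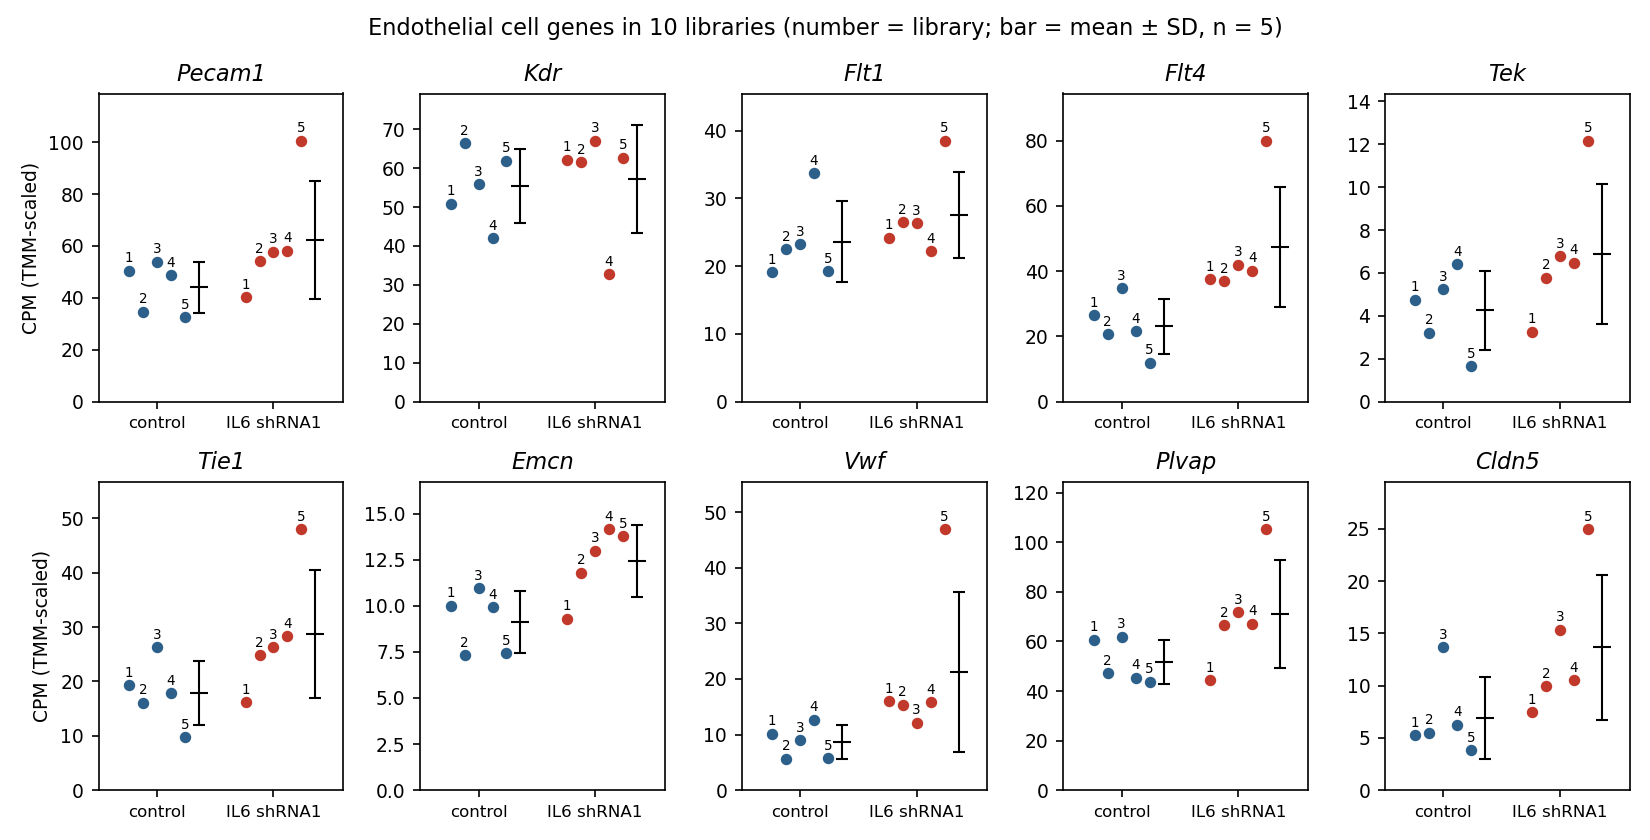
Level of the 10 endothelial genes in each library, in CPM (TMM scaling), by group, with 1 point per library, the library number above it, and the mean ± SD as a bar. Only for Flt4 do the libraries labelled IL6 shRNA1 all lie above the control libraries, and IL6 shRNA1 library 5 is the highest point for 8 of the 10 genes.

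The first set is the receptors for vascular endothelial growth factors. Kdr (chr5:75932827-75978458, minus strand, GRCm38) encodes the main signalling receptor for VEGF-A. Kdr stood at 62.2, 61.5, 67.1, 32.8 and 62.7 CPM in IL6 shRNA1 libraries 1 to 5 and at 50.9, 66.5, 55.8, 42.0 and 61.9 CPM in control libraries 1 to 5. The groups overlapped, and IL6 shRNA1 library 4 was the lowest of all. The log2 fold change was 0.047 ± 0.19 (SE, 95% interval -0.37 to 0.46, adjusted p = 0.89).

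Flt1 (chr5:147561604-147726011, minus strand) encodes a receptor that binds VEGF-A tightly and can act as a trap for it. Flt1 stood at 24.2, 26.5, 26.4, 22.2 and 38.5 CPM in IL6 shRNA1 libraries 1 to 5 and at 19.1, 22.5, 23.3, 33.7 and 19.3 CPM in control libraries 1 to 5. One library in each group was high, IL6 shRNA1 library 5 and control library 4, and the groups overlapped. The log2 fold change was 0.23 ± 0.18 (adjusted p = 0.44), and it was -0.030 without the 3 libraries that stood apart.

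Flt4 (chr11:49609263-49652739, plus strand) encodes the receptor for VEGF-C and VEGF-D and is best known from lymphatic vessels. Flt4 stood at 37.5, 37.0, 42.0, 40.2 and 80.1 CPM in IL6 shRNA1 libraries 1 to 5 and at 26.6, 20.8, 34.9, 21.6 and 11.9 CPM in control libraries 1 to 5. Every library labelled IL6 shRNA1 was above every control library, the only case among the 10 genes, while 4.81% of all genes tested were separated in that direction and 6.13% in the other. The means were 47.4 ± 18.4 and 23.2 ± 8.41 CPM (SD, n = 5), a 2.04-fold difference. The log2 fold change of Flt4 was 1.03 ± 0.30, and its adjusted p of 0.052 missed the threshold. DESeq2 gave an adjusted p of 0.0036 and limma voom 0.039, and without IL6 shRNA1 library 5 the log2 fold change was 0.76. Over 24 alternative settings the log2 fold change of Flt4 ran from 0.41 to 1.24, positive in all 24. Its adjusted p, by the test of each setting, ran from 0.0036 to 0.78.

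The 250 bases before the RefSeq start of transcription are shown for Kdr, Flt1, Flt4 and Tie1. Kdr and Flt4 lie at opposite ends of the receptor results, and Flt1 and Tie1 lie between them. The stretches are RefSeq sequences of GRCm38.p6, written 5′ to 3′ on the strand of the gene. They lie at chr5:75978456-75978705 (minus), chr5:147726012-147726261 (minus), chr11:49609429-49609678 (plus) and chr4:118489850-118490099 (minus). The gene coordinates in the text come from the count table, whose starts can differ. Within those coordinates lie all of the Flt4 stretch and most of the Tie1 stretch. Capitals mark matches, on either strand, to AGGAAG and CGGAAG, ETS words longer than the core GGAA, and to TATAAA, the TATA word.
Kdr: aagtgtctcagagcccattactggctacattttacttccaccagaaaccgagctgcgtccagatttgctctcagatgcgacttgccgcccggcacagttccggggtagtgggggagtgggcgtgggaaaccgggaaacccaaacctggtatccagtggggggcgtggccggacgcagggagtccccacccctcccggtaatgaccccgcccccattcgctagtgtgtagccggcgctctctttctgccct
Flt1: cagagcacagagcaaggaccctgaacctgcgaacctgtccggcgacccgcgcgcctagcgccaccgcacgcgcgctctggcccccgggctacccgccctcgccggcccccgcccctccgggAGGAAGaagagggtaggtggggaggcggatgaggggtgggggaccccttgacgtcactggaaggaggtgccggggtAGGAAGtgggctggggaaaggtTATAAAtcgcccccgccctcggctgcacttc
Flt4: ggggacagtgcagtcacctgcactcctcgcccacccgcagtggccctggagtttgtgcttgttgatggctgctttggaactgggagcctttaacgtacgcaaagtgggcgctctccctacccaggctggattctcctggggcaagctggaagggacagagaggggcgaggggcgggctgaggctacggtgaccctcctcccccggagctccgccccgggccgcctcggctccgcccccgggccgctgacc
Tie1: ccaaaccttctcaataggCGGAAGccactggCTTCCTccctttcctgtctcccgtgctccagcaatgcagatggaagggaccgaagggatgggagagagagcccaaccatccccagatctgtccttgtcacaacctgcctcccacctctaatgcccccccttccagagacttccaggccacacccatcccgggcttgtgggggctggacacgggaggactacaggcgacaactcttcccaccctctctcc

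Promoters were found for 7 of the 10 genes, and Pecam1, Vwf and Plvap were not matched. In windows from 250 bases before to 50 bases after the start, AGGAAG or CGGAAG was present in 3 of 7, namely Emcn, Tie1 and Flt1, and in 46.5% of all 32851 promoters. TATAAA was found in Flt1 and in 13.6% of all promoters. The GATA word AGATAA was found in Tek, past the start, and in 11.2% of all promoters. The hypoxia word ACGTG was in 0 of 7 and in 19.6% of all promoters. Its other form, GCGTG, was not searched for, and the printed Kdr stretch holds it. These are counts of letters on both strands and do not show that a factor binds. The printed stretches of Kdr and Flt4 hold none of the marked words.

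The second set is the receptors of the angiopoietin system. Tie1 (chr4:118471191-118490061, minus strand) encodes the partner of the angiopoietin receptor. Tie1 stood at 16.2, 24.8, 26.4, 28.3 and 48.1 CPM in IL6 shRNA1 libraries 1 to 5 and at 19.3, 16.1, 26.4, 17.8 and 9.79 CPM in control libraries 1 to 5. IL6 shRNA1 libraries 1, 2 and 3 were within the control range, and libraries 4 and 5 were above it. The log2 fold change was 0.68 ± 0.30 (adjusted p = 0.16). Tek (chr4:94739289-94874976, plus strand), the angiopoietin receptor itself, stood at 3.26, 5.78, 6.77, 6.47 and 12.2 CPM in IL6 shRNA1 libraries 1 to 5 and at 4.75, 3.21, 5.24, 6.41 and 1.66 CPM in control libraries 1 to 5. The groups overlapped, and Tek had a log2 fold change of 0.69 ± 0.39 (adjusted p = 0.25).

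The third set holds junction proteins and surface proteins of the vessel wall. Pecam1 (chr11:106654217-106750628, minus strand), the platelet and endothelial adhesion molecule CD31, had a log2 fold change of 0.50 ± 0.24 (adjusted p = 0.18). Its levels ran from 40.2 to 101 CPM with a median of 57.8 in the libraries labelled IL6 shRNA1 and from 32.4 to 53.9 with a median of 48.7 in the control libraries. Cldn5 (chr16:18776847-18778262, plus strand), a claudin of tight junctions, stood at 7.48, 9.93, 15.3, 10.5 and 25.0 CPM in IL6 shRNA1 libraries 1 to 5 and at 5.26, 5.50, 13.7, 6.26 and 3.80 CPM in control libraries 1 to 5. Control library 3 was the one control library within the range of the other group. The log2 fold change of Cldn5 was 0.98 ± 0.40, a 1.97-fold difference (adjusted p = 0.13 in edgeR, 0.045 in DESeq2).

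Plvap (chr8:71497765-71511752, minus strand) encodes the protein of the diaphragms that span endothelial pores. It stood between 44.5 and 105 CPM in the libraries labelled IL6 shRNA1, with a median of 67.2, and between 43.7 and 62.0 CPM in the control libraries, with a median of 47.3. The groups overlapped, and the log2 fold change was 0.46 ± 0.20 (adjusted p = 0.15). Emcn (chr3:137341067-137432185, plus strand), the sialomucin endomucin of capillaries and veins, stood at 9.30, 11.8, 12.99, 14.2 and 13.8 CPM in IL6 shRNA1 libraries 1 to 5 and at 10.01, 7.30, 10.95, 9.93 and 7.41 CPM in control libraries 1 to 5. All but IL6 shRNA1 library 1 exceeded every control library. The log2 fold change of Emcn was 0.44 ± 0.16 (adjusted p = 0.084 in edgeR, 0.043 in DESeq2).

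Vwf (chr6:125546774-125686679, plus strand) encodes von Willebrand factor, which endothelium stores and releases to capture platelets. Vwf stood at 15.98, 15.4, 12.1, 15.8 and 46.9 CPM in IL6 shRNA1 libraries 1 to 5 and at 10.2, 5.65, 8.98, 12.7 and 5.75 CPM in control libraries 1 to 5. Library 5 was again far above the rest, and the groups overlapped only between IL6 shRNA1 library 3 and control library 4. The difference was 2.45-fold, the largest of the 10 genes, with a log2 fold change of 1.29 ± 0.40 (adjusted p = 0.063 in edgeR, 0.0047 in DESeq2). Without IL6 shRNA1 library 5 the log2 fold change was 0.78. Over 24 alternative settings it ran from 0.45 to 1.47, with an adjusted p, by the test of each setting, from 0.0047 to 0.86.

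**Figure D2:**
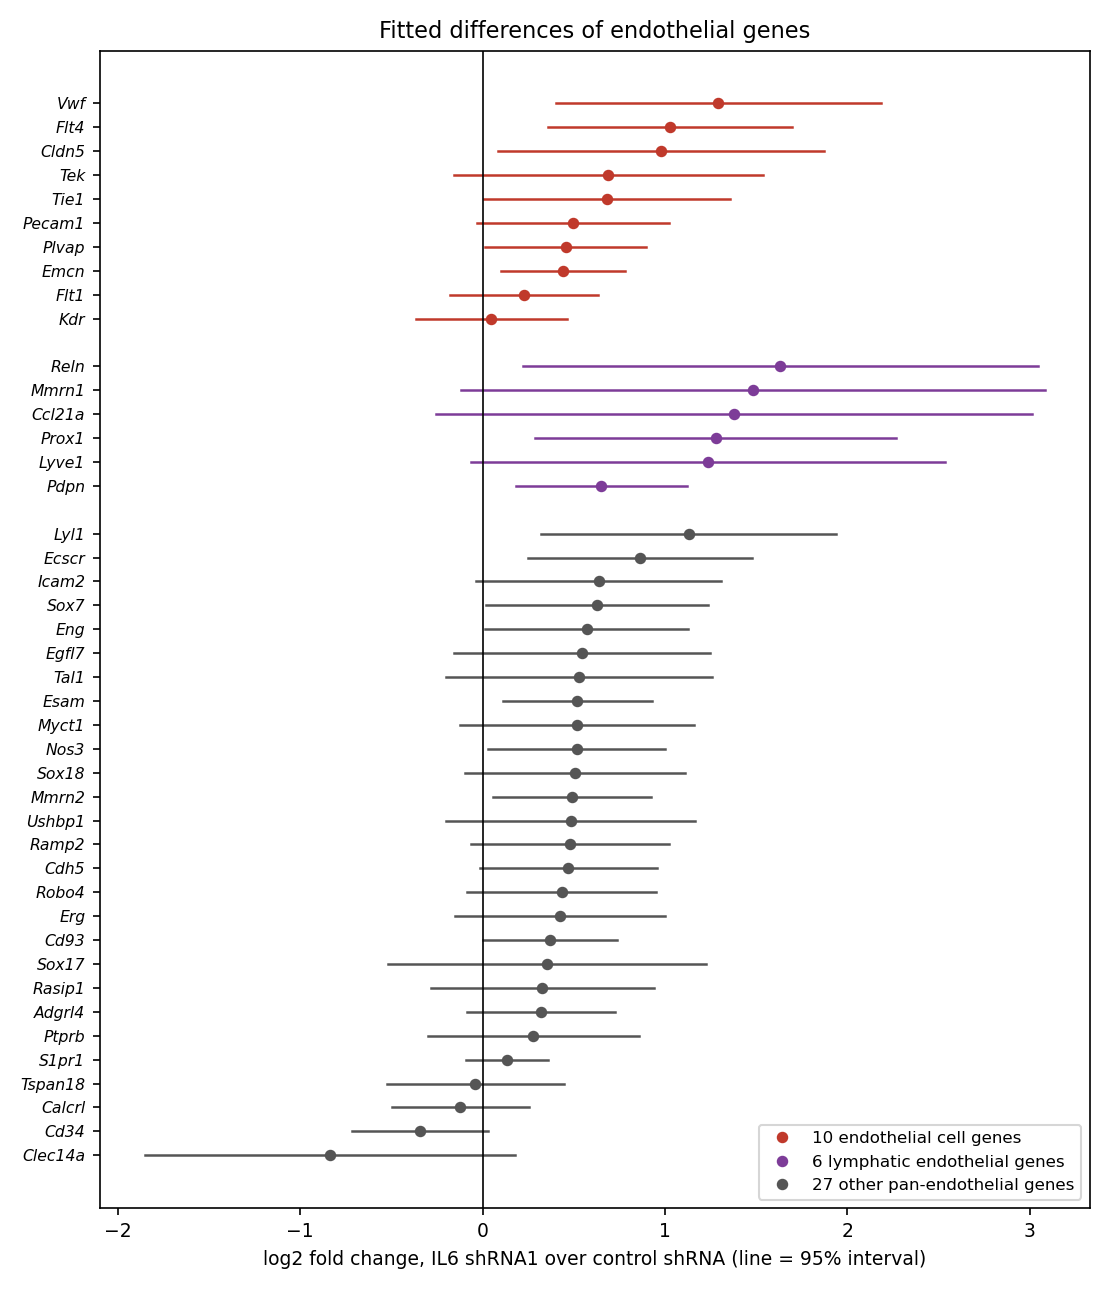
Log2 fold change (IL6 shRNA1 over control) of the 10 endothelial genes, 6 lymphatic genes and 27 further pan-endothelial genes, with the 95% interval from edgeR's quasi-likelihood fit as lines. The 10 estimates of the upper block are above 0, from 0.047 for Kdr to 1.29 for Vwf, and none of them passes an adjusted p of 0.05.

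Levels can be compared between genes only per length, so the order was taken from the deposited FPKM. Plvap was the highest at 31.0 FPKM on average over the 10 libraries, followed by Pecam1 at 8.56, Cldn5 at 7.29, Kdr at 6.21, Tie1 at 4.76, Flt4 at 4.29, Emcn at 2.00, Flt1 at 1.89, Tek at 1.19 and Vwf at 0.926. Plvap exceeded Pecam1 in all 10 libraries with ranges that did not overlap. Every other pair of neighbours in this order overlapped in range. Cldn5 exceeded Kdr in 5 of 10 libraries and Emcn exceeded Flt1 in 5 of 10, so those positions are ties.

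The genes rose and fell with Cdh5 across libraries, with 1 exception. Pearson's r of log2 CPM with Cdh5 over the 10 libraries was 0.97 for Pecam1, 0.93 for Vwf, 0.91 for Tie1, 0.90 for Tek, 0.89 for Flt4, 0.88 for Cldn5, 0.85 for Plvap and 0.80 for both Flt1 and Emcn. For Kdr it was -0.08. These are descriptions over libraries that share depth and tissue makeup. The share of all genes with an r this high was not counted. Genes of other cell types also followed the mean of the 10 endothelial genes, with r at 0.91 for Acta1, 0.90 for Krt14 and 0.87 for Itgam. Others did not, such as Col1a1 at -0.36 and Pdgfrb at -0.49. Flt1 itself, at 0.73, ranked 1633 of 15064 genes, so a high r is not particular to endothelial genes. Without the 2 libraries farthest from the median of Cdh5, Pecam1 was at 0.87, Emcn at 0.86, Flt4 at 0.63, Plvap at 0.51, Flt1 at 0.43 and Kdr at -0.41.

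**Figure D3:**
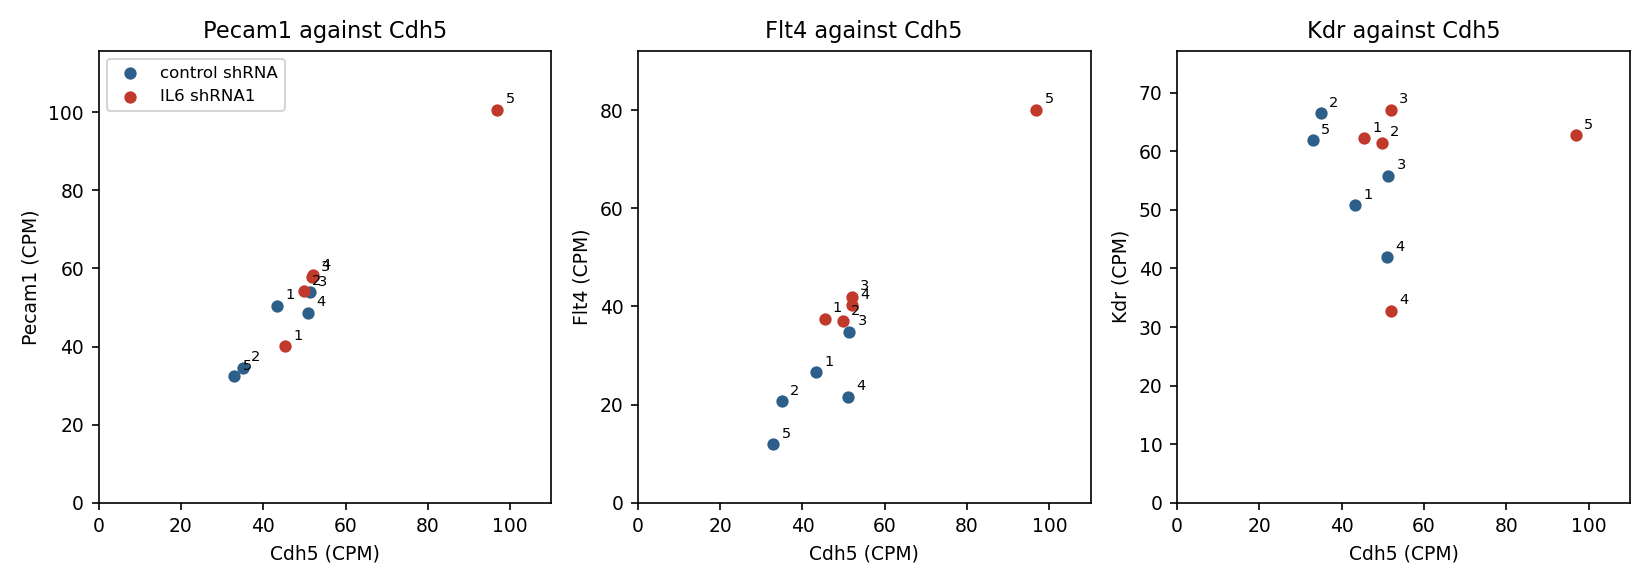
Levels of Pecam1, Flt4 and Kdr against Cdh5 in the 10 libraries, both in CPM, coloured by group and numbered by library. Pecam1 follows Cdh5 (r = 0.97) and Kdr does not (r = -0.08).

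Each gene was also set against Cdh5 within its library, and Flt4 was the one whose ratio separated the groups. The FPKM ratio of Flt4 to Cdh5 was 0.422, 0.379, 0.413, 0.395 and 0.422 in IL6 shRNA1 libraries 1 to 5 and 0.313, 0.304, 0.347, 0.217 and 0.185 in control libraries 1 to 5. The groups did not overlap in the ratio, and 0.478% of 15063 genes had a ratio to Cdh5 separated in that direction and 6.73% in the other. The ratio of Kdr to Cdh5 ran from 0.294 to 0.638 in the libraries labelled IL6 shRNA1 and from 0.383 to 0.885 in the control libraries. The ratio uses a gene whose own level differed between libraries, and IL6 shRNA1 library 5 had the highest Cdh5, at 96.9 CPM.

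Of 27 further pan-endothelial genes tested, 0 were called in edgeR's quasi-likelihood test. At an unadjusted p under 0.05, 8 of 27 were higher and 0 lower, where 15.5% of all genes were higher. DESeq2 called 3 of 27 higher, near the 10% it called higher over all its genes. Their median log2 fold change was 0.48, and 23 of 27 were positive. Eng, the endoglin co-receptor of BMP signalling, stood at 66.0 ± 22.3 CPM against 44.4 ± 11.2 (log2 fold change 0.57 ± 0.25, adjusted p = 0.15). The 4 genes below 0 were Clec14a, Cd34, Calcrl and Tspan18. Clec14a, a lectin-like surface protein, had a log2 fold change of -0.84 ± 0.46 (adjusted p = 0.24), and Cd34, a sialomucin also found on fibroblasts and stem cells, one of -0.34 ± 0.17 (adjusted p = 0.19). Cd34, Clec14a, Calcrl and Tspan18 were also the 4 of 26 with a negative r with Cdh5, as Kdr was among the 10.

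**Figure D4:**
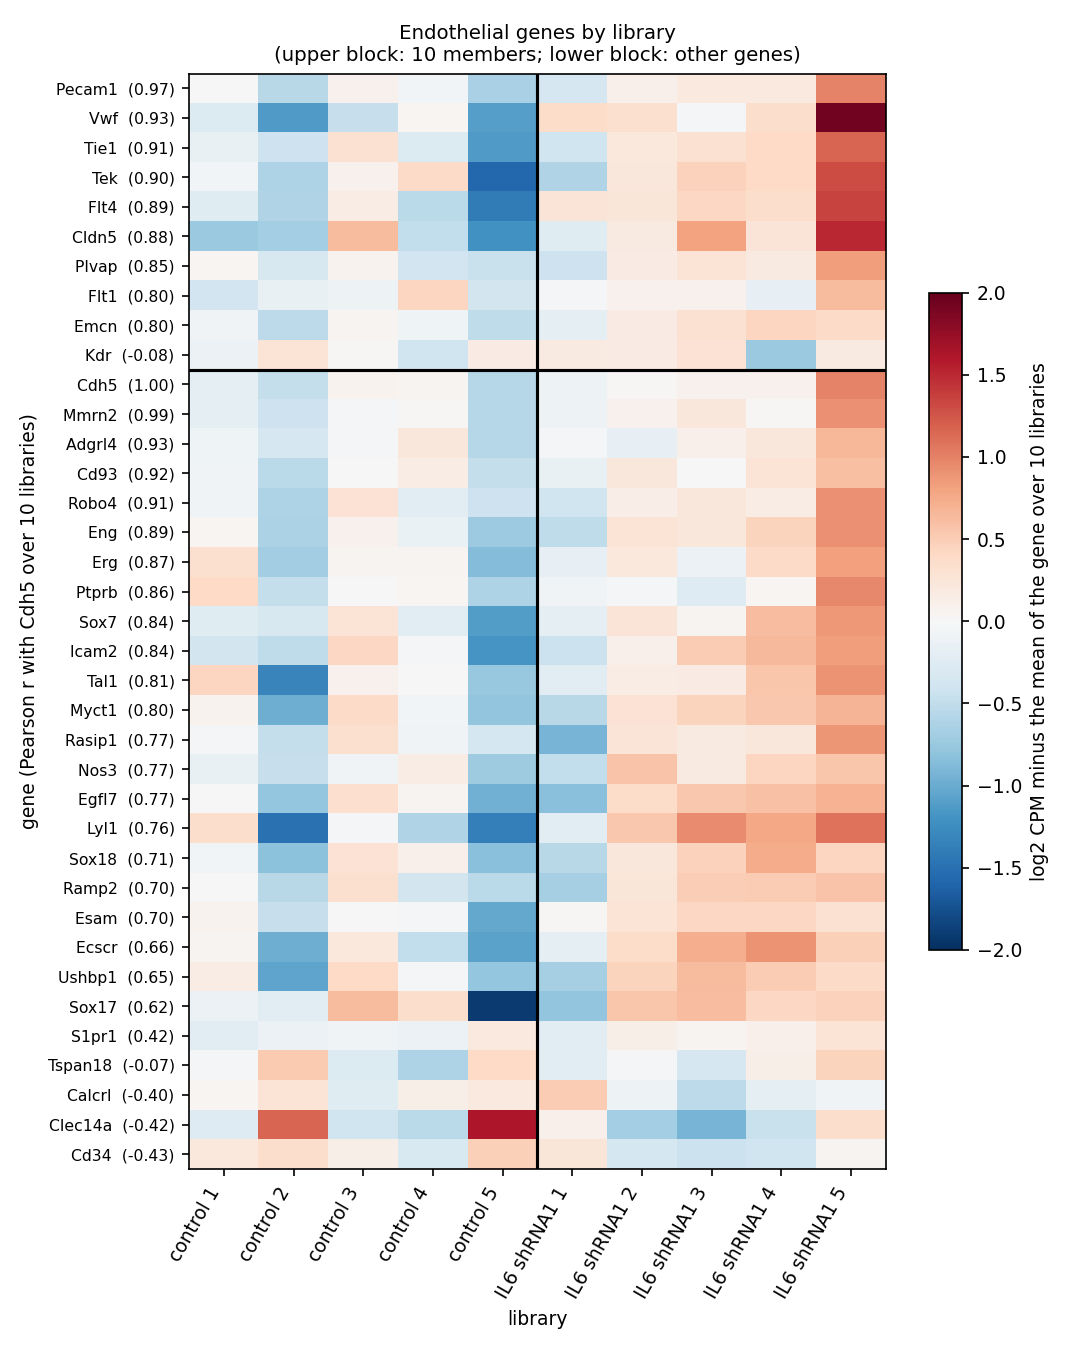
The 10 endothelial genes (upper block) and 27 further ones (lower block) by library, as log2 CPM minus the mean of the gene over the 10 libraries. IL6 shRNA1 library 5 is high and control library 5 low for most genes, and Kdr, Cd34 and Clec14a do not follow them.

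Of 10 ligand and co-receptor genes tested, 1 was called higher (5.62% of all genes) and 2 lower (6.16%), and 7 did not pass the test. Angpt1, the agonist ligand of the Tek receptor, fell from 65.0 ± 9.75 to 40.4 ± 4.80 CPM in the group labelled IL6 shRNA1 (log2 fold change -0.68 ± 0.12, adjusted p = 0.0061 in edgeR), and no library overlapped. Vegfb, a ligand of the Flt1 receptor, fell from 30.3 ± 2.91 to 20.7 ± 2.48 CPM (-0.55 ± 0.10, adjusted p = 0.0080), again without overlap. Without the 3 libraries that stood apart, the adjusted p in edgeR was 0.087 for Angpt1 and 0.11 for Vegfb. With the leukocyte level of each library as a covariate it was 0.29 and 0.34. In these fits 1.38% and 0.272% of all genes tested were called in either direction, so most calls were lost for any gene. Vegfc, a ligand of the Flt4 receptor, rose from 18.8 ± 3.77 to 27.9 ± 2.65 CPM (0.56 ± 0.13, adjusted p = 0.022), a call that was lost without IL6 shRNA1 library 2 and without control library 5. Vegfa, the main ligand of Kdr, was at 190 ± 64.6 CPM against 161 ± 14.8 (adjusted p = 0.54), and Vegfd was listed at 0.

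Lists of genes that mark states of endothelium gave 1 call of 8, 2 of 13 and 0 of 3, where 11.8% of all genes were called in either direction. Among the 8 tip cell and sprouting genes 1 was called, Cxcr4, a chemokine receptor that leukocytes also express, at 52.5 ± 10.2 against 21.8 ± 7.99 CPM (log2 fold change 1.27 ± 0.24, adjusted p = 0.010), and the call held in every omission of a single library. Without the 3 libraries that stood apart, the adjusted p of Cxcr4 was 0.067, and with the leukocyte level as a covariate it was 0.42. Of 13 arterial, venous and capillary genes tested, Gja5, an arterial connexin, rose from 1.73 ± 0.58 to 3.79 ± 1.52 CPM and Hey1, a Notch target of arteries, fell from 112 ± 13.4 to 82.9 ± 14.5 CPM, both at an adjusted p of 0.048 in edgeR. The call of Gja5 held only in the fits without library 1 of either group and was lost in the other 8 omissions. That of Hey1 was lost in 7 of 10 and held without library 1 of either group and without IL6 shRNA1 library 4. Over the 10 libraries, the r of log2 CPM with the mean of the 10 endothelial genes was -0.90 for Hey1 and 0.83 for Gja5. Which cells supplied the RNA of Hey1 was not tested. Adhesion molecules of activated endothelium gave 0 calls of 3 tested by edgeR, with 0 at an unadjusted p under 0.05; Vcam1 stood at 75.4 ± 11.1 against 57.2 ± 18.6 CPM and Icam1 at 50.4 ± 8.65 against 39.9 ± 11.9 CPM.

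Lymphatic genes had the highest median of the endothelial lists, at 1.33 over 6 genes, all positive and 0 called by edgeR, with 3 higher at an unadjusted p under 0.05 (15.5% of all genes) and 3 called higher by DESeq2 (Prox1, Pdpn and Reln; 10% of all its genes). Without IL6 shRNA1 library 5 their median was 0.76, and without the 3 libraries that stood apart it was 0.35. Pdpn, a mucin-like protein that fibroblasts also make, was at 83.0 ± 11.6 against 52.9 ± 17.5 CPM (0.65 ± 0.21, adjusted p = 0.069), and Ccl21a, a chemokine of lymphatic vessels, at 24.1 ± 18.4 against 9.16 ± 9.63 CPM (adjusted p = 0.23). Prox1, the factor that sets lymphatic identity, was at 6.84 ± 4.29 against 2.80 ± 1.45 CPM (log2 fold change 1.28 ± 0.45, adjusted p = 0.085). Its libraries ran from 4.54 to 14.5 CPM in the group labelled IL6 shRNA1 and from 0.949 to 4.64 in the control group, so the ranges overlapped narrowly. Lyve1, a hyaluronan receptor of lymphatic endothelium and of some macrophages, was at 13.6 ± 10.1 against 5.74 ± 4.66 CPM (adjusted p = 0.18).

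Marker lists of other cell types were measured beside the endothelial genes. Leukocyte genes were called higher for 7 of 12 tested, where 5.62% of all genes were, with a summed level of 1586 to 2585 CPM against 706 to 1586 CPM in the control libraries. Csf1r, the macrophage growth factor receptor, rose from 151 ± 44.5 to 276 ± 46.2 CPM (0.86 ± 0.20, adjusted p = 0.025), and Itgax, C1qb and Lyz2 were among the other calls. The 7 calls fell to 0 without IL6 shRNA1 library 2 or control library 5 to 1 without IL6 shRNA1 library 3, 4 or 5, and to 3 without control library 4. With the leukocyte level of each library as a covariate, the median log2 fold change of the 10 endothelial genes was 0.04, with 5 of 10 positive. That level, a mean of centred log2 CPM, ran from -0.017 to 0.78 in the group labelled IL6 shRNA1. In the control group it ran from -1.32 to 0.13. It largely follows the group, so this fit cannot well separate it from the group. With it, 0.272% of all genes tested were called in either direction. Mural cell genes, of the pericytes and smooth muscle around vessels, gave 3 higher calls and 1 lower of 11 tested. Over all genes tested, 5.62% were called higher and 6.16% lower. Among the mural genes, Myh11 stood at 9.38 ± 2.31 against 4.66 ± 1.03 CPM (adjusted p = 0.013 in edgeR). Notch3 stood at 24.8 ± 5.82 against 51.0 ± 9.81 CPM (adjusted p = 0.0075 in edgeR). Both of these calls held in every omission of a single library, while those of Tagln and Mcam were lost in 5 of 10 each. With the leukocyte covariate the adjusted p was 0.48 for Myh11 and 0.33 for Notch3, and without the 3 libraries that stood apart it was 0.10 for Myh11. The part of these cell types in the endothelial result was not tested beyond these values.

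Muscle, fat and skin genes gave 0 calls of 4 tested in edgeR, with 2 higher at an unadjusted p under 0.05 (15.5% of all genes). Their summed level was 134, 1647, 764, 1193 and 7548 CPM in IL6 shRNA1 libraries 1 to 5 and 198, 58.8, 801, 363 and 25.4 CPM in control libraries 1 to 5. The highest and lowest libraries of this sum were also the highest and lowest of the endothelial sum. Fibroblast genes were called lower for Lum and Dcn, 2 of 7 tested, where 6.16% of all genes were. Neither call held with the leukocyte covariate or without the 3 libraries that stood apart. Platelet and red cell genes, which matter for Pecam1 and Vwf because platelets also carry them, gave 0 calls of 7 in edgeR. At an unadjusted p under 0.05, 1 of 7 was higher (15.5% of all genes). Their sum was 100 to 147 CPM against 84.1 to 140 CPM. Most of it was Itgb3, at 94.8 CPM on average over the 10 libraries, so the sum is no measure of platelet or red cell RNA. Pf4 averaged 6.91 CPM, Ppbp 0.51 and Gp1ba 0.55. Of the 11 listed, 4 were not tested: Gp1bb and Alas2 at 0, Gp9 at 0.034 and Tubb1 at 0.014 CPM.

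**Figure D5:**
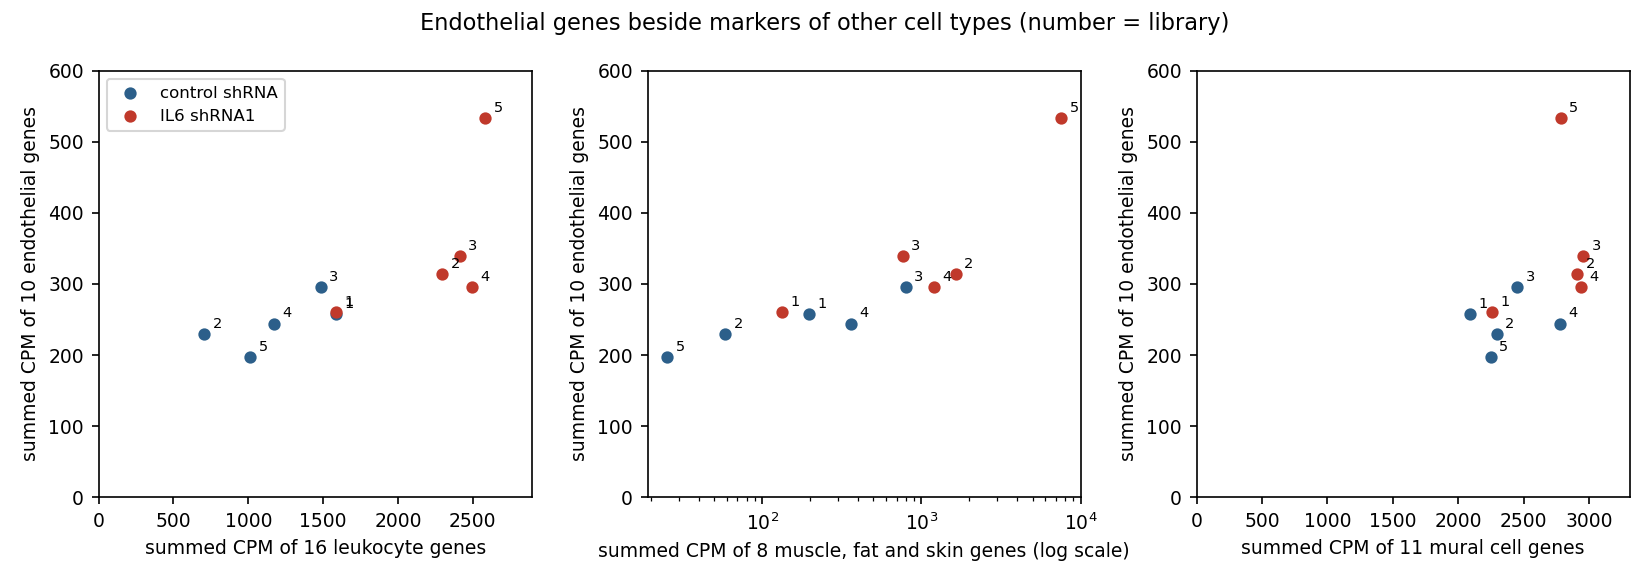
Summed CPM of the 10 endothelial genes against that of leukocyte genes, of muscle, fat and skin genes (log axis) and of mural cell genes, 1 numbered point per library, coloured by group. IL6 shRNA1 library 5, with 533 CPM of endothelial genes, also has 7548 CPM of muscle, fat and skin genes.

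The genes most like the endothelial mean were named by a rule, as the 10 with the highest r among 12774 candidates over the 10 libraries. They were Mmrn2, Tbx1, Ankrd23, Klhl8, Otud1, Rasgrp3, Scn4a, Cdh5, Cdh13 and Gpr146, with r from 0.96 to 0.98. Mmrn2 encodes an endothelial matrix protein, whereas Ankrd23 and Scn4a are known from muscle. None of these 10 was called. Kdr followed another pattern, and the genes nearest to it, chosen after its values were seen, were led by Vldlr, the very low density lipoprotein receptor, at r = 0.92 and Tmem45a at 0.91.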

How the data were processed

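RNA sequencing libraries of 10 samples, 5 labelled IL6 shRNA1 and 5 control shRNA, were analysed. Raw counts per gene, as whole numbers, are in the table the authors deposited, with 55385 entries, and the deposited FPKM table holds the same entries scaled to length and column total. Per the submitters' processing notes, Trim Galore 0.6.6, STAR 2.7.0f and Subread 1.6.4 were among the tools, with mm10 and GRCm38. For the strand setting and the annotation release, the sources used here give nothing. No sample column was left out. Counts were fitted in R 4.3.3 with edgeR 4.0.16: filterByExpr by group (minimum count 10), TMM scaling, glmQLFit with robust dispersion, glmQLFTest, and Benjamini-Hochberg adjustment over 15064 genes, called at 0.05. CPM values carry the TMM factors, and SE is the log2 fold change over the square root of F. The procedure was tested on simulated data of 15064 genes. It recovered 64 of 100 genes with a true 2-fold change and 90 of 100 with a 4-fold change, with 5 false calls. A gene that was not called can therefore still differ by 2-fold. The alternatives included DESeq2 1.42.0 and limma 3.58.1 voom, other scalings and filters, FPKM with pseudocounts 1 and 0.1, and the omission of each library. Promoters came from RefSeq (GRCm38.p6), and other annotation from GENCODE. Named genes were Il6, the 10 endothelial genes, up to 4 called genes per list (or the 2 most abundant), and the 10 most alike by r; other genes named (Vegfa, Vegfd, Prox1, Lyve1, Reln, Clec14a, Calcrl, Tspan18 and those near Kdr) were chosen after their values were seen. The members and lists were chosen with earlier results of these data known.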

Additional observations from a re-analysis of the deposited data

Results flagged for a closer look

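Single libraries stood far from the rest of their group for 11 of 50 groups of 5 libraries examined. The cut-off is set to flag 1 in 20 for independent, normally distributed values. These 50 share the same 10 libraries and include sums of the same genes, so their share cannot be set against that rate. IL6 shRNA1 library 5 was high for Flt1 (38.5 CPM, others 22.2 to 26.5), Flt4 (80.1, others 37.0 to 42.0), Vwf (46.9, others 12.1 to 15.98), Cdh5 (96.9, others 45.4 to 52.0) and the summed 10 endothelial genes (533, others 261 to 339). In the same library the muscle, fat and skin genes summed to 7548 CPM, against 134 to 1647 in the other 4. Kdr was low in IL6 shRNA1 library 4, at 32.8 CPM against 61.5 to 67.1. Among control libraries, Flt1 was high in library 4 (33.7 CPM, others 19.1 to 23.3) and Cldn5 in library 3 (13.7 CPM, others 3.80 to 6.26). IL6 shRNA1 library 1 was low for the mural cell sum (2256 CPM, others 2782 to 2954) and for the leukocyte sum (1586 CPM, others 2296 to 2585).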

How the results depend on the processing

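The count of all genes called, 1775, was 3025 with DESeq2, 381 at an adjusted p under 0.01, 41 with the leukocyte score as a covariate, 212 without the 3 libraries that stood apart, and 864 to 2774 when each library was omitted. Of the 10 endothelial genes, 1 was called with a filter of 1 CPM in 5 libraries, with limma voom and without robust dispersion (Flt4 each time), 4 with DESeq2, and 0 to 3 over the omissions; of the further pan-endothelial genes, 3 with DESeq2 and 0 to 5 over the omissions. Over the omissions Kdr ran from -0.039 to 0.21. The leukocyte covariate and the omission of 3 libraries were chosen after seeing the data. Sign changes with the covariate are given only for Il6, the 10 endothelial genes, genes named by rule from the lists, Cdh5, Clec14a and Calcrl. The log2 fold changes that changed sign were Il6 -0.72, Pecam1 -0.18, Tek -0.27, Tie1 -0.041, Emcn -0.010, Plvap -0.067, Cdh5 -0.048, Eng -0.20, Clec14a 0.37, Calcrl 0.26, Ccl21a -0.43, Icam1 -0.32, Pf4 -0.018, Itgb3 -0.039, Acta1 -0.78 and Myh4 -4.14. Other listed genes also changed sign over the 24 settings, such as Cd93 (-0.10 to 0.46) and Egfl7 (-0.42 to 0.75). Without the 3 libraries Flt1 was -0.030. The causes were not tested. The numbers in the sample titles are not said to pair the libraries. Of 10 libraries, 2 correlated best with their own number, and the same-number correlations ran from -0.28 to 0.27. These values cannot exclude a paired design. The replicate block gave 755 calls in edgeR and 0 of the 10 endothelial genes. With it, Angpt1, Vegfb, Notch3, Lum and Dcn were called among the listed genes. Cxcr4 (adjusted p = 0.051), Myh11 (0.059), Vegfc (0.061), Gja5, Hey1, Tagln, Mcam and the leukocyte genes were not.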
